A study of Arabidopsis thaliana with 6 samples.

Results

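The 10 genes described here encode the phytochromes (PHYA, PHYB, PHYC, PHYD and PHYE), the cryptochromes (CRY1, CRY2 and CRY3) and the phototropins (PHOT1 and PHOT2) of Arabidopsis thaliana. They were chosen by locus, with earlier results of these data known, and are 10 of the 33602 loci in the deposited gene counts. All 10 passed the filter on low counts.

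The RNA came from Columbia wild-type seedlings grown on agar at 22 °C under light of 50 µmol m-2 s-1 and kept for 9 days in 12 h of light and 12 h of darkness per day. Stratification lasted 4 days in both groups. In the light pulse group, seedlings received 2 h of white light starting at ZT18, that is 18 h after the lights came on and in the middle of the night. In the dark control group, seedlings stayed dark, and both groups were collected at ZT20. Each group had 3 libraries of mRNA from a pool of tissues, identified here by the letters A, B and C of the deposited columns. Both groups carried no mutation and differed only in the pulse.

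Phytochromes carry a bilin chromophore and switch between a red-absorbing and a far-red-absorbing form, so that they report red light, far-red light and shade. Plant cryptochromes bind flavin and respond to blue light, in growth and in the timing of flowering, while the DASH type works in organelles. Phototropins are blue-light activated protein kinases at the plasma membrane that direct phototropism, chloroplast movement and stomatal opening.

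The libraries held 8695843 to 12689543 counts over genes. Light pulse library A and dark control library C were richest in ribosomal RNA, with 4.40% of counts in light pulse A and 4.77% in dark control C, against 0.799% to 1.75% in the other 4. Levels on the log2 CPM scale (CPM are counts scaled to a common library total) correlated across genes at r = 0.989 to 0.991 within groups and 0.925 to 0.939 between groups. Leaf and stomatal markers summed to 168 to 173 CPM in light pulse libraries and 171 to 173 CPM in dark controls, and of these 4 markers 1 rose and 3 fell, although YAB3 was not called by DESeq2 or without any 1 library except dark control C (edgeR adjusted p of 0.0560 to 0.146). Root markers summed to 165 to 184 CPM in light pulse libraries and 188 to 203 CPM in dark controls, again with all 4 detected, and 3 of the 4 rose while PHO1 fell. Of those that rose, EXPA7 was not called with library totals, by DESeq2, or without dark control A, dark control C, light pulse A or light pulse B (edgeR adjusted p of 0.0670 to 0.116). The part of this marker difference in the results below was not tested. In RNA from a pool of tissues, fewer cells of a type and less RNA per cell cannot be told apart.

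The pulse was followed by changed mRNA levels of 9 of the 10 photoreceptor genes. PHYB, PHYC, PHYE, CRY3 and PHOT2 rose, and PHYA, CRY1, CRY2 and PHOT1 fell, while PHYD was not called. A call means an adjusted p under 0.05 in edgeR's quasi-likelihood F test with Benjamini-Hochberg adjustment over all 20151 genes tested. That rule called 56.3% of all genes tested, 28.9% as higher and 27.4% as lower, so a call by itself sets these genes little apart. The size of the change was larger: the median absolute log2 change was 0.60 over the 10 genes and 0.34 over all genes tested. Light pulse and dark control libraries did not overlap for the same 9 genes, and did not for 62.4% of all genes tested.

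**Figure D1:**
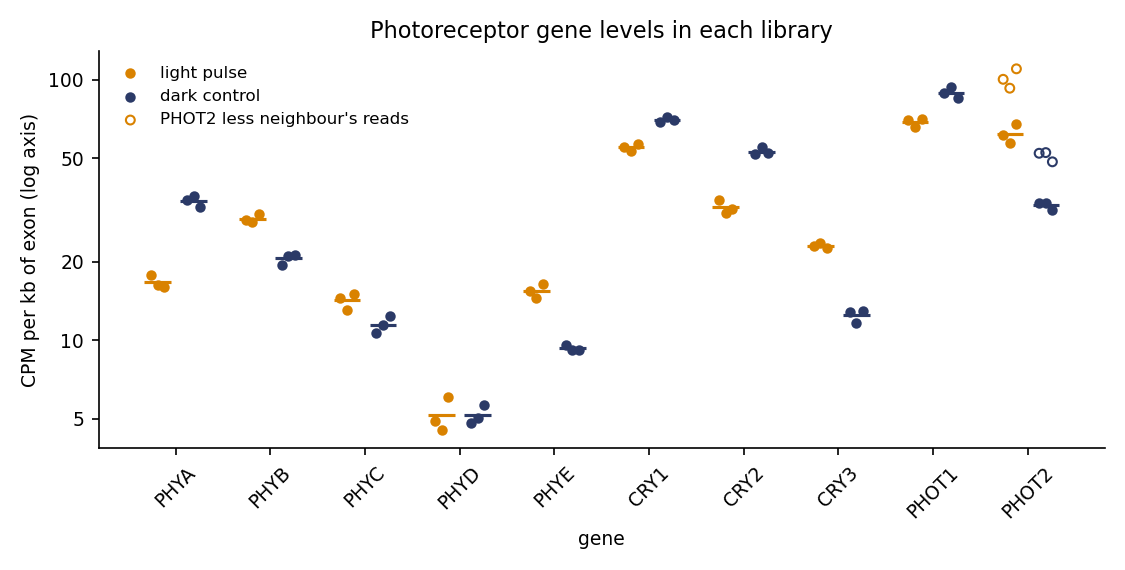
Level of each photoreceptor gene in each library, in CPM per kb of exon on a log axis. Orange points are the 3 light pulse libraries and blue points the 3 dark controls, horizontal lines are group means, and open points give PHOT2 after the reads of a neighbouring gene were taken off. The groups overlap for PHYD and for no other gene.

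Among the phytochromes, PHYA (AT1G09570, chr1:3095256-3100357 in TAIR10), the receptor for far-red and very weak light whose protein is degraded in light, fell the most. It had 17.8, 16.3 and 16.1 CPM per kb of exon in light pulse libraries A, B and C, against 34.4, 35.9 and 32.4 in dark controls A, B and C. Every light pulse library was far below every dark one. The level in pulsed seedlings was 48.9% of that in dark controls, a log2 change of -1.03 ± 0.06 (SE, n = 3 each; edgeR adjusted p = 2.61e-09). That change was larger in size than those of 89.2% of genes tested. On this length-scaled measure PHYA stood above 63.9% of genes tested in pulsed seedlings and above 81.8% in dark controls.

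PHYB (AT2G18790, chr2:8139881-8144430), the main red-light receptor of light-grown plants, rose. Its level was 28.9, 28.3 and 30.4 CPM per kb in light pulse libraries A, B and C, against 19.5, 21.1 and 21.3 in dark controls. The lowest pulsed library lay above the highest dark one. The log2 change was 0.50 ± 0.06 (SE, n = 3 each; edgeR adjusted p = 4.00e-06), or 1.42-fold. PHYA and PHYB thus exchanged places: PHYA was 0.614, 0.577 and 0.529 times PHYB per kb in light pulse libraries, and 1.77, 1.70 and 1.52 times PHYB in dark controls. The 5 ratios between members that were compared each gave an exact permutation p of 0.1, two-sided, which is the smallest that 3 libraries against 3 allow, and 0.1 after adjustment over the 5.

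PHYE (AT4G18130, chr4:10042137-10046082), which shares the control of shade responses with PHYB, also rose. It had 15.5, 14.6 and 16.4 CPM per kb in light pulse libraries against 9.59, 9.21 and 9.20 in dark controls, with no overlap. The log2 change was 0.73 ± 0.07 (SE, n = 3 each; edgeR adjusted p = 2.11e-07). The PHYE to PHYB ratio per kb was 0.529 ± 0.013 in pulsed seedlings and 0.454 ± 0.034 in dark controls (SD, n = 3; exact permutation p = 0.1). At one end of PHYE, 112 bases also belong to AT4G18120, which fell (log2 change -0.32 ± 0.08, edgeR adjusted p = 0.00438). Summed over its exon parts without the shared one, PHYE changed by 0.77 ± 0.07.

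PHYC (AT5G35840, chr5:14007826-14011764), a phytochrome that depends on other phytochromes for its stability, had 14.6, 13.1 and 15.1 CPM per kb in light pulse libraries and 10.6, 11.4 and 12.4 in dark controls. The groups came close, with the lowest pulsed library just above the highest dark one. Its log2 change was 0.31 ± 0.07 (SE, n = 3 each; edgeR adjusted p = 0.00262). With library totals in place of TMM (trimmed mean of M-values) factors, the median of all genes shifted to -0.15 on the log2 scale and PHYC was not called, at 0.17 and an edgeR adjusted p of 0.0694. PHYC was the only member whose call was lost under any alternative tried.

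PHYD (AT4G16250, chr4:9195602-9199486), the closest paralogue of PHYB, was the least abundant of the 10 genes in both groups. It had 4.89, 4.51 and 6.04 CPM per kb in light pulse libraries and 4.82, 5.05 and 5.65 in dark controls, from 176 to 256 reads a library. The ranges overlapped in full. The log2 change was -0.02 ± 0.11 (SE, n = 3 each; edgeR adjusted p = 0.869), and with single libraries left out it ranged between -0.14 and 0.07. PHYB was 5.74 ± 0.64 times PHYD per kb in pulsed seedlings and 3.99 ± 0.21 times in dark controls (SD, n = 3; exact permutation p = 0.1).

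The phytochrome sum over the 5 genes did not separate the groups, although 4 of its members were called. The sums were 81.6, 76.8 and 84.0 CPM per kb in light pulse libraries and 78.9, 82.6 and 80.8 in dark controls, with overlapping ranges (exact permutation p = 1). The means were 80.8 ± 3.7 CPM per kb in pulsed seedlings and 80.8 ± 1.9 in dark controls (SD, n = 3), and with library totals the pulsed sum was 90.5% of the dark one. Within the sum, PHYA made up 20.7% ± 1.4 in pulsed seedlings and 42.4% ± 2.0 in dark controls (SD, n = 3). PHYB took 36.2% ± 0.72 and PHYE 19.1% ± 0.31 in pulsed seedlings, against 25.5% ± 0.82 for PHYB and 11.6% ± 0.53 for PHYE in dark controls. PHYC took 17.6% ± 0.51 in pulsed seedlings and 14.2% ± 0.96 in dark controls. Each of these 4 shares had non-overlapping libraries and an exact permutation p of 0.1, while the PHYD share was 6.35% ± 0.73 in pulsed seedlings and 6.40% ± 0.51 in dark controls (exact permutation p = 0.8).

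**Figure D2:**
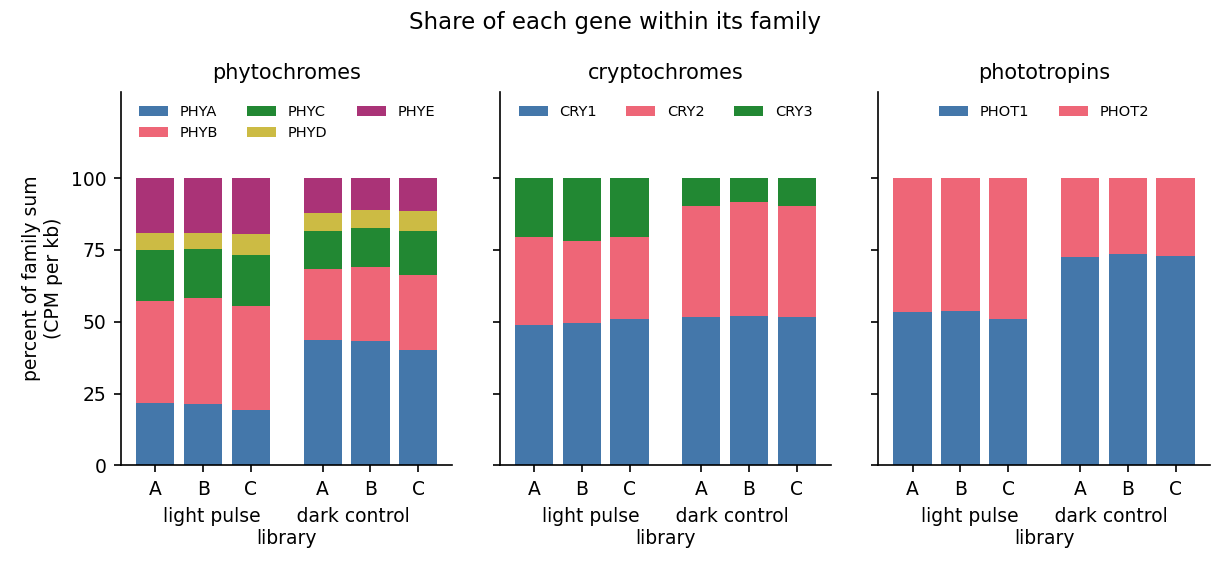
Share of each gene in the summed level (CPM per kb of exon) of its family, in percent, for each library; bars start at 0 and each stack adds to the whole family. Light pulse libraries A, B and C stand left of dark controls A, B and C. PHYA takes 19.1% to 21.8% of the phytochrome sum in light pulse libraries and 40.0% to 43.6% in dark controls, and the PHOT2 and CRY3 shares are larger in every light pulse library.

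Among the cryptochromes, the mRNA of both blue-light receptors of the nucleus fell and the mRNA of the organelle protein rose. CRY1 (AT4G08920, chr4:5724103-5727253), the receptor that limits hypocotyl growth in strong blue light, had 55.4, 53.3 and 56.5 CPM per kb in light pulse libraries and 68.6, 71.6 and 69.9 in dark controls. The groups did not overlap, and the log2 change was -0.35 ± 0.06 (SE, n = 3 each; edgeR adjusted p = 7.51e-05). CRY2 (AT1G04400, chr1:1185550-1188517), which acts in weak blue light and in photoperiodic flowering and whose protein is degraded in blue light, had 34.6, 30.7 and 32.0 CPM per kb in light pulse libraries and 51.6, 54.9 and 52.1 in dark controls. All light pulse libraries were well below all dark ones. The log2 change of CRY2 was -0.71 ± 0.06 (SE, n = 3 each; edgeR adjusted p = 1.43e-07), and CRY2 over CRY1 was 0.589 ± 0.032 in pulsed seedlings and 0.755 ± 0.011 in dark controls (SD, n = 3; exact permutation p = 0.1).

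CRY3 (AT5G24850, chr5:8535282-8538107), a DASH cryptochrome imported into chloroplasts and mitochondria that can repair ultraviolet lesions in single-stranded DNA, rose. It had 23.0, 23.7 and 22.6 CPM per kb in light pulse libraries and 12.9, 11.6 and 12.9 in dark controls. The 3 pulsed libraries lay close together and far above the dark ones. The log2 change was 0.89 ± 0.07 (SE, n = 3 each; edgeR adjusted p = 6.14e-08), larger in size than those of 85.5% of genes tested.

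The cryptochrome sum was 113, 108 and 111 CPM per kb in light pulse libraries and 133, 138 and 135 in dark controls, without overlap (exact permutation p = 0.1). That is 81.7% of the dark level, and 73.9% with library totals. CRY3 took 20.9% ± 0.95 of the sum in pulsed seedlings and 9.22% ± 0.71 in dark controls, while CRY2 took 29.3% ± 1.2 in pulsed seedlings and 39.1% ± 0.61 in dark controls (SD, n = 3). The CRY1 share differed least, at 49.8% ± 0.97 in pulsed seedlings and 51.7% ± 0.16 in dark controls. Each share gave an exact permutation p of 0.1.

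The phototropins moved in opposite directions. PHOT1 (AT3G45780, chr3:16816866-16824210), the receptor for phototropism in weak blue light, had 70.2, 65.9 and 70.4 CPM per kb in light pulse libraries and 88.6, 93.7 and 84.97 in dark controls. The groups did not overlap, and the log2 change was -0.37 ± 0.06 (SE, n = 3 each; edgeR adjusted p = 5.51e-05). PHOT2 (AT5G58140, chr5:23524427-23533111), which takes part in phototropism in strong blue light and moves chloroplasts away from strong light, had 4230, 4422 and 3668 reads in light pulse libraries and 2766, 2588 and 2668 in dark controls. Per kb this was 61.4, 57.0 and 67.7 CPM in light pulse libraries and 33.5, 33.6 and 31.7 CPM in dark controls. The dark libraries lay within a narrow range far below the pulsed ones, and the log2 change was 0.91 ± 0.07 (SE, n = 3 each; edgeR adjusted p = 1.30e-08). PHOT2 over PHOT1 per kb was 0.901 ± 0.053 in pulsed seedlings and 0.370 ± 0.010 in dark controls (SD, n = 3; exact permutation p = 0.1).

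**Figure D3:**
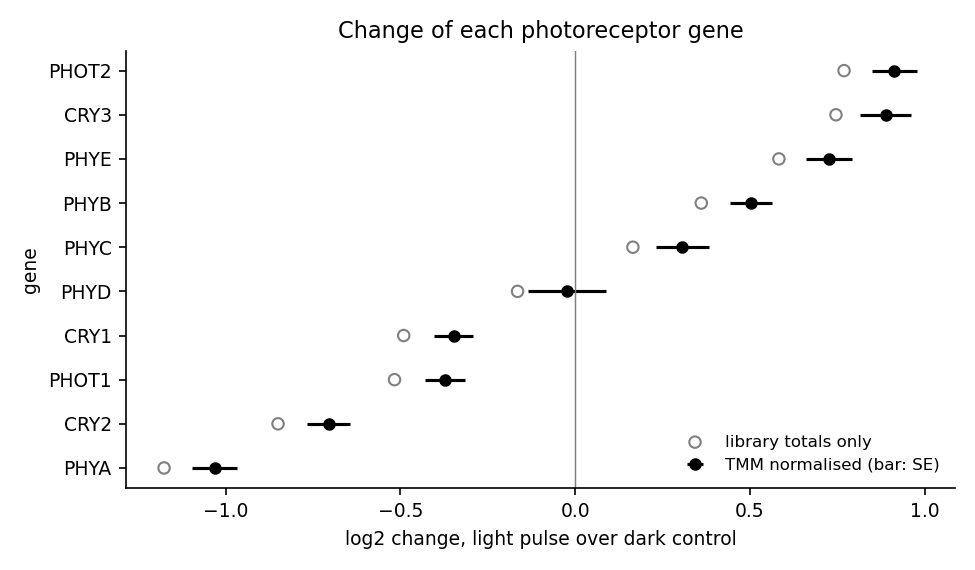
Log2 change of each photoreceptor gene, light pulse over dark control, ordered by size (x axis; genes on the y axis). Filled points are TMM-normalised with SE bars, and open points use library totals only, which moves every gene down by a like amount. PHYA lies lowest at -1.03 and PHOT2 highest at 0.91, and PHYD stays nearest 0 with TMM.

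The length and count of PHOT2 include another gene. The last PHOT2 exon part in the annotation runs over chr5:23529871-23533111, 3241 of the 6501 exonic bases, and contains all 2760 bases of AT5G58150 (chr5:23530081-23532840). The deposited counts do not mark this overlap. AT5G58150 had 258, 289 and 239 reads in light pulse libraries and 289, 263 and 324 in dark controls, and was not called (log2 change 0.13 ± 0.09, edgeR adjusted p = 0.219). Summing exon parts and taking off junction reads and the reads of a 5-base part gave 1.01 times the PHOT2 gene count, and 0.929 times with the reads of AT5G58150 taken off too. The PHOT2 count therefore holds those reads.

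Taking off the reads and bases of AT5G58150 left PHOT2 with 100.2, 92.7 and 110 CPM per kb in light pulse libraries and 52.2, 52.5 and 48.4 in dark controls. The log2 change was then 0.98 ± 0.07 (SE, n = 3 each; edgeR adjusted p = 7.35e-09). PHOT2 made up 59.4% ± 1.4 of the phototropin sum in pulsed seedlings and 36.4% ± 0.59 in dark controls, against 47.4% ± 1.4 in pulsed seedlings and 27.0% ± 0.54 in dark controls as annotated (SD, n = 3; exact permutation p = 0.1 both ways). The sum of both phototropins as annotated was 131.6, 123 and 138 CPM per kb in light pulse libraries and 122, 127 and 117 in dark controls, with overlap (exact permutation p = 0.2). It stood at 107% of the dark level as annotated, at 97.0% with library totals and at 121% without the reads of AT5G58150.

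The order of levels among the 10 genes therefore depends on how PHOT2 is counted. As annotated, the order per kb in pulsed seedlings was PHOT1, PHOT2, CRY1, CRY2, PHYB, CRY3, PHYA, PHYE, PHYC and PHYD. The ranges of PHOT1 and PHOT2, of PHYA and PHYE, and of PHYE and PHYC overlapped there. In dark controls the order was PHOT1, CRY1, CRY2, PHYA, PHOT2, PHYB, CRY3, PHYC, PHYE and PHYD, with overlap between PHYA and PHOT2 and between CRY3 and PHYC. Without the reads of AT5G58150, PHOT2 stood above PHOT1 in every light pulse library, and in dark controls it stood above PHYA, with a range that overlapped that of CRY2. As annotated, PHYA ranked the seventh in pulsed seedlings and the fourth in dark controls, and apart from PHOT2 no other gene differed by more than 1 rank.

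Within the transcripts, few parts changed their usage, which is the reads on a part relative to its gene. Of 92 exon parts listed for the 10 genes 88 could be tested and 1 was called, beside 0.0988% of all 102199 exon parts tested. An unadjusted p under 0.05 was found for 6 of the 88, and for 4763 of all parts tested. The called part was the PHOT2 gene end, with 655, 713 and 544 reads in light pulse libraries and 537, 481 and 527 in dark controls. It took 15.5% ± 0.65 of the PHOT2 count in pulsed seedlings and 19.3% ± 0.60 in dark controls (SD, n = 3), with no overlap, and its usage changed by -0.31 ± 0.04 on the log2 scale (edgeR adjusted p = 0.0148).

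With single libraries left out the usage change stayed between -0.34 and -0.28, while the edgeR adjusted p lay between 0.0537 and 0.108 without any 1 library except light pulse B (0.0276). Without both light pulse A and dark control C the change was -0.29 and the edgeR adjusted p 0.382. Without the reads of AT5G58150, the part took 9.99%, 10.3% and 8.89% of the PHOT2 reads in light pulse libraries and 10.0%, 9.38% and 8.66% in dark controls. These ranges overlapped (exact permutation p = 0.6). Relative to PHOT2 counted without the gene end, the part itself changed by -0.39 ± 0.05 (edgeR adjusted p = 0.00629), and each of the other 24 exon parts tested had an edgeR adjusted p of 1. Their usage changes ran from -0.12 to 0.12 from the fifth part on and from -0.21 to 0.55 in the short parts before it.

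**Figure D4:**
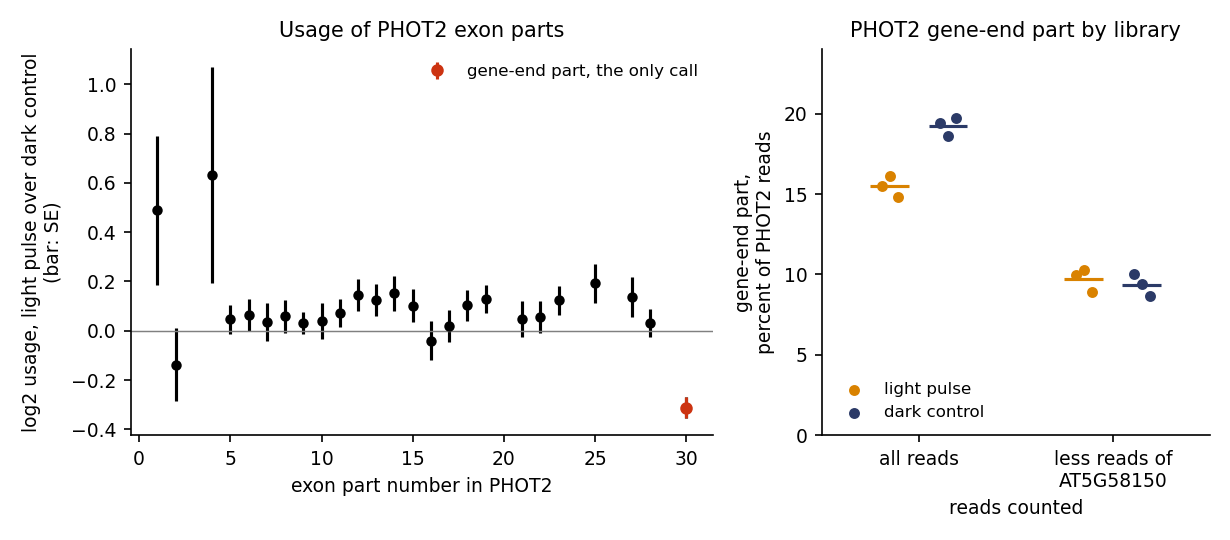
Left, log2 usage of each tested PHOT2 exon part, light pulse over dark control, by part number, with SE bars; the gene-end part in red, at -0.31, is the only call. Right, the reads on that part in percent of PHOT2 reads for each library (orange, light pulse; blue, dark control; lines are means), first with all reads and then without those of AT5G58150, where the groups overlap.

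Among the other exon parts, the largest fall in usage with an unadjusted p under 0.05 was in a part at one end of PHYA. It had 18, 17 and 6 reads in light pulse libraries and 45, 54 and 48 in dark controls, a usage change of -0.53 ± 0.23 (edgeR adjusted p = 1), which was -0.33 without light pulse C. CRY3 had a gene-end part at 0.33 ± 0.15 and an inner part at -0.38 ± 0.13 (edgeR adjusted p of 1 and 0.886), and the gene-end value was 0.18 without dark control C. CRY2 had an inner part at -0.25 ± 0.09 and PHOT2 one at 0.19 ± 0.08 (edgeR adjusted p of 0.851 and 1), the PHOT2 value being 0.11 without light pulse B. Over the tested parts of the other members the usage changes ran from -0.12 to 0.06 in PHYB, from -0.04 to 0.08 in PHYC, from -0.06 to 0.09 in PHYD, from -0.23 to 0.10 in PHYE, from -0.12 to 0.04 in CRY1 and from -0.13 to 0.11 in PHOT1.

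The annotation lists 6 alternatively spliced parts in these genes, 1 in PHYA, 1 in CRY2 and 4 in PHOT2, of which 4 were tested and 0 called, beside 1.19% of all 3348 such parts tested. An unadjusted p under 0.05 was found for 1 of the 4 and for 303 of all parts.

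PHYA carries an annotated intron retention of 91 bases (chr1:3098941-3099031) that had 34, 32 and 27 reads in light pulse libraries and 66, 72 and 72 in dark controls. No junction read that splices it out was listed in any library, and its usage changed by 0.14 (edgeR adjusted p = 0.922). It held 34.1 reads per 100 bases in pulsed seedlings and 76.9 in dark controls, while the exon parts on its sides held 16.5 and 19.4 in pulsed seedlings and 41.2 and 50.5 in dark controls. The exon parts of PHYA summed, less junction reads, came to 1.04 times the gene count, so some reads were counted in more than 1 part. Reads per base are therefore not directly comparable between this part and its neighbours of 1783 and 192 bases. The stretch was read in every library, and no spliced form was detected at this depth.

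In PHOT2, the retained intron of 215 bases at chr5:23528511-23528725 had 15, 11 and 13 reads in light pulse libraries and 4, 1 and 3 in dark controls. The groups did not overlap, and the usage change was 1.67 ± 0.51 on the log2 scale, but it was not called (edgeR adjusted p = 0.160). Per 100 junction reads that splice it out there were 9.39 ± 2.6 reads on it in pulsed seedlings and 3.00 ± 1.7 in dark controls (SD, n = 3; exact permutation p = 0.1). The second retained intron of PHOT2, of 98 bases, had 12, 14 and 9 reads in light pulse libraries and 7, 6 and 8 in dark controls, a usage change of 0.12 ± 0.37 (edgeR adjusted p = 0.992).

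The 5-base alternative donor of PHOT2 was used in 98.2% ± 1.2 of the junction reads at its border in pulsed seedlings and in 99.3% ± 1.3 in dark controls (SD, n = 3; exact permutation p = 0.3). A 4-base alternative donor near the start of PHOT2 had too few reads for the test, and was used in 21.6% ± 5.3 of junction reads in pulsed seedlings and 14.4% ± 10.1 in dark controls (exact permutation p = 0.4). The alternative acceptor of CRY2 had 1 junction read in light pulse libraries and 1 in dark controls, while the other annotated acceptor had 34, 43 and 21 in light pulse libraries and 71, 61 and 71 in dark controls.

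Intron reads were scarce. Of 73 introns 6 could be tested and 0 were called, beside 6.05% of all 3338 introns tested, and 1 of the 6 had an unadjusted p under 0.05, as had 681 of all. That was a 75-base intron of PHOT2 (chr5:23527652-23527726) with 14, 14 and 11 reads in light pulse libraries and 4, 4 and 3 in dark controls, a usage change of 1.21 ± 0.37 (edgeR adjusted p = 0.0929). Over all its introns together, PHOT1 held reads equal to 0.856% ± 0.13 of its gene count in pulsed seedlings and 0.492% ± 0.061 in dark controls (SD, n = 3; exact permutation p = 0.1), without overlap. These were 61 reads in pulsed seedlings and 56 in dark controls. A PHOT1 intron in this sum (chr3:16816916-16818543) contains an annotated exon part. That part held 9, 4 and 3 of the intron's 10, 4 and 3 reads in light pulse libraries, and all 8, 4 and 4 in dark controls. PHOT2 held 1.91% ± 0.10 in pulsed seedlings and 1.55% ± 0.38 in dark controls (exact permutation p = 0.2). Another annotated exon part lies in a PHOT2 intron (chr5:23524550-23524722). Part and intron had the same 23, 11 and 16 reads in light pulse libraries and 7, 11 and 3 in dark controls. A further annotated exon part lies in the PHOT2 intron at chr5:23529369-23529452. This part had 3, 8 and 3 reads in light pulse libraries and 2, 3 and 1 in dark controls. The intron had 5, 10 and 7 in light pulse libraries and 3, 4 and 1 in dark controls. The percentages of PHOT1 and PHOT2 thus include reads on annotated exon parts, and intron reads outside them were not summed.

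Of 107 junctions listed for the 10 genes, 4 were also assigned to another gene and were set aside. Among the other 103, 68 could be tested and 0 were called, beside 0.169% of all 65835 junctions tested, while 5 of the 68 and 3540 of all had an unadjusted p under 0.05. The smallest p was at the first annotated junction of PHYB, with 41, 46 and 27 reads in light pulse libraries and 21, 24 and 22 in dark controls. Its usage change was 0.55 ± 0.21 (edgeR adjusted p = 0.772). Of the 107 junctions, 30 were not annotated. PHOT2 had 10 of those, with 94 reads of 9051 junction reads in pulsed seedlings and 44 of 5565 in dark controls. PHYC had 1, with 21 of 112 junction reads in pulsed seedlings and 14 of 97 in dark controls. It had 8, 8 and 5 reads in light pulse libraries and 4, 3 and 7 in dark controls. An annotated junction sharing a border with it had 10, 4 and 14 in light pulse libraries and 4, 8 and 10 in dark controls. All junctions of PHYC were among the 4 set aside and were not tested.

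The genes that act with these receptors are taken from lists of known partners, and a call again stands beside 56.3% of all genes tested. Of 4 photoreceptors outside the 3 families, 1 fell. That was LKP2, a blue-light sensing F-box protein, at 17.1 ± 0.41 CPM in pulsed seedlings and 26.1 ± 3.1 CPM in dark controls (SD, n = 3; log2 change -0.61 ± 0.10). ZTL and FKF1, its relatives in the clock and in flowering, and UVR8, the ultraviolet-B receptor, changed by -0.05 ± 0.07, -0.66 ± 0.35 and -0.08 ± 0.07 and were not called. With library totals, ZTL and UVR8 were called too, and without light pulse library A, FKF1 was called at -1.18 (edgeR adjusted p = 0.0206).

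Both photolyases listed here, DNA repair enzymes related to cryptochromes, changed strongly and in opposite directions. PHR1, which repairs pyrimidine dimers, had 19.5, 18.7 and 20.2 CPM in light pulse libraries and 8.74, 7.34 and 7.87 CPM in dark controls. UVR3, which repairs (6-4) photoproducts, had 4.15, 5.20 and 3.598 CPM in light pulse libraries and 22.7, 20.2 and 19.4 CPM in dark controls. Neither gene's groups overlapped, and the log2 changes were 1.28 ± 0.11 for PHR1 and -2.24 ± 0.13 for UVR3 (edgeR adjusted p of 6.38e-08 and 1.79e-09).

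Of 5 genes for the phytochrome chromophore, 3 could be tested and 1 fell. HY1, the main haem oxygenase, had 87.6 ± 3.2 CPM in pulsed seedlings and 104 ± 3.1 CPM in dark controls (SD, n = 3; log2 change -0.25 ± 0.06, edgeR adjusted p = 0.00169). HO2 (0.08 ± 0.08) and HY2, the phytochromobilin synthase (-0.13 ± 0.13), were not called, although HY2 was without dark control library B, at -0.29 (edgeR adjusted p = 0.0172). HO3 and HO4 averaged under 1 CPM in both groups and were not tested.

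**Figure D5:**
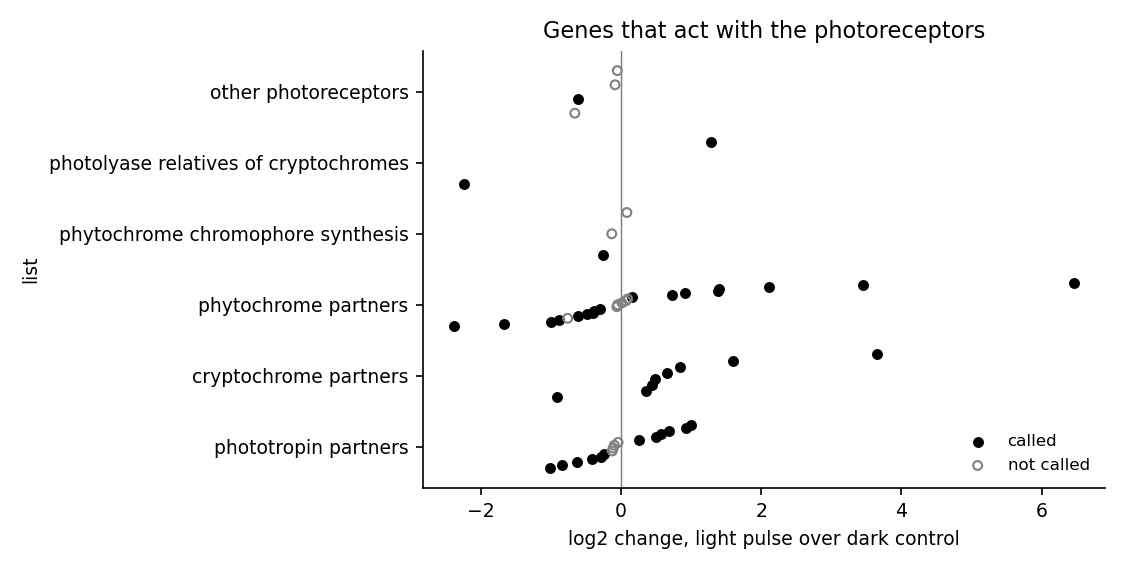
Log2 change, light pulse over dark control (x axis), of each tested gene in the 6 lists of other photoreceptors, photolyases, chromophore enzymes and receptor partners (y axis). Filled points were called and open points were not; of the cryptochrome partners 7 of 8 lie above 0, all 4 of the other photoreceptors lie below 0, and the remaining 4 lists hold genes on both sides.

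Of 23 phytochrome partners 8 rose, 9 fell and 6 were not called, and with library totals 7 rose and 10 fell. Of those that rose, AT3G03940 (log2 change 0.16) was not called with library totals or by DESeq2. Nor was it called without dark control C, light pulse A or light pulse C (edgeR adjusted p of 0.0588 to 0.0973). The list's median log2 change was -0.05, beside -0.0031 for all genes tested. The smallest adjusted p values belonged to LRB1, an E3 ligase adaptor for PHYB, and to PIF7 and PIF4, transcription factors that bind active PHYB. LRB1 had 31.9 ± 0.47 CPM in pulsed seedlings and 102 ± 7.9 CPM in dark controls (log2 change -1.67 ± 0.07). PIF7 had 24.3 ± 0.88 CPM in pulsed seedlings and 5.62 ± 0.71 CPM in dark controls (2.11 ± 0.11), and PIF4 had 21.9 ± 4.3 CPM in pulsed seedlings and 2.02 ± 0.77 CPM in dark controls (3.45 ± 0.20; all SD, n = 3).

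Of 8 cryptochrome partners 7 rose and 1 fell, also with library totals, and the median log2 change was 0.57. AT3G44450 had 20.5 ± 1.1 CPM in pulsed seedlings and 1.62 ± 0.27 CPM in dark controls (log2 change 3.65 ± 0.15), and AT3G52740 had 21.6 ± 1.4 CPM in pulsed seedlings and 7.05 ± 0.54 CPM in dark controls (1.61 ± 0.11). SPA1 and SPA4, which form E3 ligase complexes with COP1, rose by 0.65 ± 0.06 and 0.84 ± 0.07 and shared the next adjusted p (1.19e-07).

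Of 16 phototropin partners 6 rose, 6 fell and 4 were not called, and with library totals 5 rose and 9 fell. The median log2 change was -0.10. KAC1, a kinesin-like protein of actin-based chloroplast movement, had 204 ± 8.5 CPM in pulsed seedlings and 101 ± 5.8 CPM in dark controls (log2 change 1.01 ± 0.06). PMI2, also needed for chloroplast movement, had 42.8 ± 3.3 CPM in pulsed seedlings and 22.4 ± 0.67 CPM in dark controls (0.93 ± 0.08). AT3G01490 had 20.4 ± 2.0 CPM in pulsed seedlings and 41.5 ± 3.6 CPM in dark controls (-1.01 ± 0.09; all SD, n = 3).

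The genes nearest in pattern to the members with the 2 largest falls (PHYA and CRY2) and the 2 largest rises (CRY3 and PHOT2) were found among 13134 genes with a mean of at least 10 CPM, by the root mean square difference of log2 CPM over the 6 libraries after centring on the dark mean. PHYA was closest to SDP1, the lipase that breaks down seed oil, at 0.022, then to AT5G27400 and AT2G41710. CRY2 was closest to AUX1, an auxin importer, at 0.020, then to AT2G34170 and AT1G19660. CRY3 was closest to AT2G01260 at 0.027, to OEP37, a channel of the chloroplast outer envelope, and to SAL1, a phosphatase of stress signalling. PHOT2 was closest to AT1G11410 at 0.030, then to AT1G19550 and AT5G08720, with the reads of AT5G58150 still in its count. A small difference on this measure requires a like log2 change between the groups. The closest genes changed by -1.03 (SDP1), -0.70 (AUX1), 0.88 (AT2G01260) and 0.95 (AT1G11410). Whether they share more than that with the members was not tested.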

How the data were processed

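The authors deposited raw read counts per library for genes and, within genes, for exons, introns, annotated splicing events and junctions. Alignment used TopHat2 2.0.9 and the TAIR10 genome, with R 3.1 downstream, per the submitters' processing notes. How reads were counted, filtered or assigned to strands is not given in the sources used here. Columns carry letters and labels carry numbers, so columns were tied to groups only. The labels do not say whether the libraries come from separate cultures of seedlings, so the p-values reflect only the spread among these 6, which may be technical. No pair in a group agreed within sampling noise (lowest chi-square per degree of freedom, 2.69).

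Genes were filtered with filterByExpr, scaled with TMM and tested with edgeR 4.0.16 (quasi-likelihood F test) in R 4.3.3, light pulse over dark control, adjusted by Benjamini-Hochberg over all genes tested. DESeq2 1.42.0 was an alternative. Usage was tested likewise, with the gene's own count in each library (plus 0.5, logged) as the offset. A read that crosses a junction counts in both exon parts. Levels are CPM on TMM-scaled totals per kb of the exonic length in the gene counts. Single values used exact permutation tests over libraries, two-sided. The methods were also run on simulated data with far fewer changed genes than were called here, and that outcome is not given.

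The genes and lists were chosen with earlier results of these data known. From each list up to 3 called genes by adjusted p, and every gene of lists of 5 or fewer, are named. For the 2 largest rises and falls the 3 nearest genes are named. Exon parts, an intron and a junction that were not called were picked for their p after their values were seen. Symbols came from the counts or RefSeq, and 11 listed genes without one are given by locus. Subtraction of AT5G58150 was chosen after the data were seen, as were the comparison of family sums and the fits without the ribosomal RNA-rich libraries.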

Additional observations from a re-analysis of the deposited data

How the results depend on the processing

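Alternatives were library totals, DESeq2 size factors, DESeq2's Wald test, no filter on low counts, no ribosomal RNA loci and each library left out. The calls of the 10 genes held under these, except that of PHYC with library totals (given above). Called exon parts numbered 0 to 1 with single libraries left out and 0 without light pulse A and dark control C. No paired analysis was possible because the columns carry letters and not the replicate numbers of the labels.

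With genomic in place of exonic length, the light minus dark difference in family share was 9.74 percentage points for PHYB, -0.39 for CRY1, 9.65 for CRY3, -21.8 for PHOT1 and 21.8 for PHOT2, and the light sums were 104% of dark for phytochromes, 79.2% for cryptochromes and 119% for phototropins. Without the reads of AT5G58150 the differences were -23.0 for PHOT1 and 23.0 for PHOT2, and the phototropin sum was 121%. With library totals the sums were 90.5%, 73.9% and 97.0%; the last turned round. The PHYD share ranged from -0.47 to 0.24 points with single libraries left out.

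None of the changes that reversed had been called. With single libraries left out, PHYD ranged from -0.14 to 0.068, HMR from -0.070 to 0.18, AT5G18190 from -0.020 to 0.056 and NPH3 from -0.074 to 0.011, as did usage of introns I003 of PHYB (-0.10 to 0.54), I003 of CRY1 (-0.34 to 0.032) and I015 of PHOT2 (-0.61 to 0.11). Library totals gave -0.057 for HO2, -0.070 for HMR, -0.13 for AT5G18190, -0.047 for AT3G13670 and -0.0075 for AT5G58150. Without both libraries richest in ribosomal RNA the values were 0.058 for PHYD, -0.036 for AT5G18190, -0.18 for PHYB I003 and -0.0076 for PHOT2 I002. The causes were not tested. Counts limit parts of few reads, such as the PHYD junctions and most introns.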
